A study of Mus musculus with 4 samples.

Results

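Leukocyte surface antigens and antibody genes were followed in the liver of male C57BL/6 mice. The genes were picked by symbol. A gene qualified when its symbol began with Cd and a digit, or named an immunoglobulin heavy, kappa or lambda gene, or was Jchain, Ms4a1 or Ptprc (Cd74 was left aside). It also had to be Present, the detection call for a signal above background, on at least 1 of 4 arrays. Of 90 genes with a fitting symbol on the array, 43 were members, 32 surface antigen genes and 11 antibody genes, out of 5007 genes Present on at least 1 array. The other 47 were left out. Of these, 44 were Absent on all arrays, 3 (Cd72, Ighg3 and Igkv4-59) reached a Marginal call, and none had a signal above 25.1 units on any array. Just inside the rule stood 8 genes that were Present on 1 array only, with Present signals between 4.2 and 28.3 units. Where a gene had several probe sets, the one brightest on average stood for it, and Ighg3 was left out although a dimmer probe set of it was Present on 1 array.

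Total RNA was hybridised to 4 Affymetrix MG_U74Av2 GeneChips, 1 for each combination of operation and time. Sham-operated mice served as controls, with chow and water freely available. Adrenalectomised (ADX) mice had both adrenal glands removed under ketamine and xylazine anaesthesia and drank saline, so the operated groups also differed in their drinking fluid. Livers were collected at ZT2 or ZT14 (zeitgeber time, hours after lights came on). How many mice stand behind an array is not stated in the labels. Each group has 1 array, so no difference given here was checked in replicates. A gene is said to be called when it differed at least 2-fold between 2 arrays and was Present on the brighter one. This is a cut on size and carries no p-value. A fold against an array without a Present call is a lower bound, written as "at least", against the dim signal or a floor of 3.91 units, whichever was higher. Signals of different genes come from different probes and are not compared as expression levels.

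CD antigens are surface proteins by which leukocytes are typed, and many of them are also made by other cells. The liver holds resident macrophages (Kupffer cells), natural killer and T cells and some B cells beside hepatocytes and endothelium. Antibodies are built from a heavy chain and a kappa or lambda light chain, each with a variable segment joined to a constant region, and are made by B cells and in large amounts by plasma cells. Adrenal glucocorticoids are known to lower circulating lymphocyte numbers and to shift their traffic between blood and tissues over the day.

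The markers that define lymphocyte lineages were mostly below detection. Of 16 T and natural killer cell antigens on the array, 14 were never Present, among them Cd3d, Cd3e and Cd3g of the T cell receptor complex and the co-receptors Cd4 and Cd8a. The 2 that were, Cd27 and Cd160, were each Present on 1 array. Of 8 B cell antigens, Ms4a1, Cd79a and Cd24a were members and Cd22, Cd72, Cd79b, Cd37 and Cd180 were not. Outside the members, 0 of 9 natural killer cell genes and 1 of 12 neutrophil genes on the array were Present on any array, and 3 of 11 T cell lineage genes, of which Zap70, a kinase of the T cell receptor, was Present on all arrays (62.0 and 45.8 units in sham, 39.5 and 65.1 in ADX) and the cytokine receptor chain Il7r in sham ZT14 alone. The B cell factor Pax5 was Present on 3 arrays. Kupffer cell and macrophage genes were measured in 15 of 17 cases, with Clec4f, a Kupffer cell lectin, between 221.7 and 263.6 units, and all 11 hepatocyte genes were Present on all arrays. Few of the genes gathered by symbol here both mark a lymphocyte lineage and had a detected signal. In whole liver RNA, fewer cells of a type and less RNA per cell cannot be told apart.

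**Figure D1:**
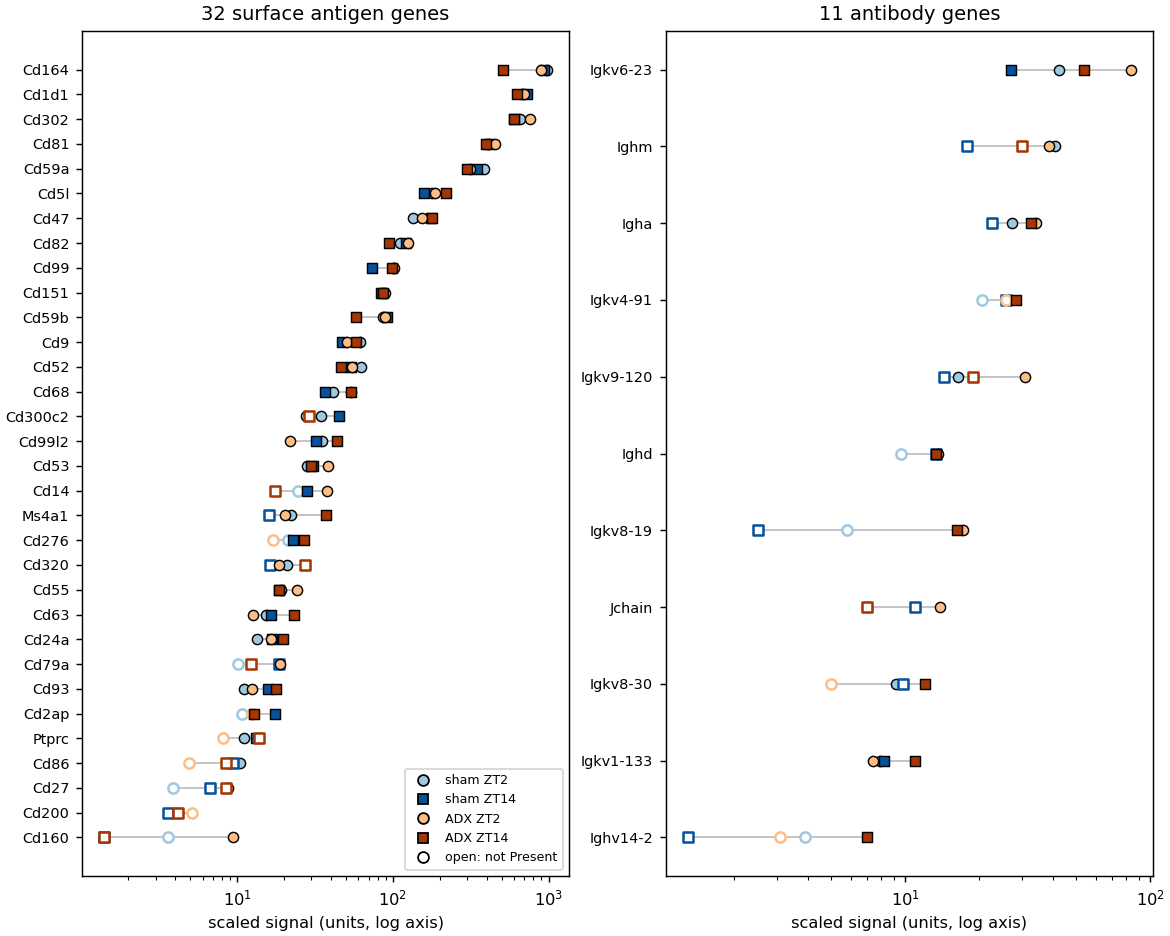
Scaled signal of each member on each array (log axis, signal units), surface antigen genes on the left and antibody genes on the right, in order of mean signal. Circles are ZT2 and squares ZT14, blue is sham and orange ADX, and open symbols are not Present. The 4 symbols lie close together for Cd81, Cd151 and Cd1d1, Cd164 has 1 low symbol at ADX ZT14, and Igkv6-23 and Igkv8-19 have both ADX symbols above both sham symbols.

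Part of the antibody light chain probe sets had higher signals on both ADX arrays than on both sham arrays. Of 6 kappa members this held for Igkv6-23, Igkv8-19, Igkv9-120 and Igkv4-91 and not for Igkv8-30 and Igkv1-133, and of all 5007 genes it held for 17.1%. Igkv8-19 and Igkv4-91 were Present on ADX arrays only, so they became members through the arrays where they were high. The closest signals of Igkv4-91 were 25.7 units in sham ZT14 and 25.8 in ADX ZT2, neither Present. For Igkv9-120 they were 16.5 in sham ZT2 and 18.9, not Present, in ADX ZT14. Among the members for which it held, Igkv6-23 alone was Present on all arrays among the kappa genes. Over all 43 members, both ADX signals lay above both sham signals for 10, against 17.1% of all genes. The reverse held for 4, against 12.2%, both near the background. The probe set named Igkv6-23 had 42.5 units in sham and 83.4 in ADX at ZT2, and 27.1 in sham and 53.9 in ADX at ZT14, and it was Present on all arrays. ADX was thus 1.96-fold above sham at ZT2 and 1.99-fold at ZT14, just short of a call at both times. The log2 differences were 0.97 and 0.99, where the robust SD over all genes Present on both arrays was 0.25 at ZT2 and 0.30 at ZT14. The annotation gives this probe set the symbol of a variable segment, while the description printed on the array names the constant region of the kappa chain. Igkv8-19, a kappa variable segment by its symbol, comes from a probe set described as an artificial single chain antibody. It had 5.8 and 2.5 units on the sham arrays, not Present on either, and 17.2 and 16.3 on the ADX arrays, Present on both. It was called higher in ADX at both times, at least 2.95-fold at ZT2 and at least 4.18-fold at ZT14, with the bound set by dim signals and the floor.

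A further probe set, annotated to 5 kappa symbols and so not a member, also had both ADX signals above both sham signals. Its signals were 98.6 units in sham ZT2, 63.0 in sham ZT14, 225.9 in ADX ZT2 and 157.0 in ADX ZT14, Present on all arrays. ADX was 2.29-fold higher at ZT2 and 2.49-fold higher at ZT14. The kappa probe sets can read the same transcripts, since every kappa chain carries the same constant region, so they are not separate observations of the difference. The comparisons at ZT2 and ZT14 share no array. Igkv9-120, a kappa segment by its symbol and a rearranged heavy chain by the description on the array, had 16.5, 14.4, 30.8 and 18.9 units for sham at ZT2 and ZT14 and then ADX at ZT2 and ZT14. It was 1.87-fold higher in ADX at ZT2, and at ZT14 it was Present in neither operation.

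The other antibody genes differed between operations in mixed directions or hardly at all. Igha, the constant region of IgA by its symbol, had 27.4 and 22.7 units in sham and 34.2 and 32.8 in ADX, ADX being 1.25-fold higher at ZT2 and at least 1.45-fold at ZT14. The array describes the probe sets of Igha and Ighv14-2 alike, as a germline heavy chain D segment region, so their symbols are uncertain. Ighd, of IgD, had 9.6 and 13.4 units in sham and 13.6 and 13.4 in ADX. Igkv4-91 (20.6 and 25.7 units in sham, 25.8 and 28.3 in ADX) was Present in ADX ZT14 and on no other array. Igkv8-30 went the other way at ZT2, at least 1.83-fold lower in ADX, and Igkv1-133 stayed between 7.4 and 11 units on all arrays. Ighv14-2 was at or under the floor except at 7.0 units on the ADX ZT14 array. Jchain, the chain that joins IgM and IgA into polymers, was Present on the ADX ZT2 array alone, at 13.9 units against 7.0, 11 and 7.0 elsewhere.

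Ighm, the heavy chain of IgM, has 16 probe sets under its symbol, and they disagreed. The brightest had 40.9 units in sham ZT2 and 17.9, not Present, in sham ZT14, with 38.8 and 30 in ADX, and ADX and sham differed by 1.05-fold at ZT2. Of its other probe sets 2 were Present on any array. The one described as an IgA heavy chain had 17.6 and 3.0 units in sham and 29.3 and 15.4 in ADX. The one described as a mu chain fragment had 15.6 and 0.5 in sham and 5.4 and 14.7 in ADX, so at ZT2 it was at least 2.88-fold lower in ADX.

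**Figure D2:**
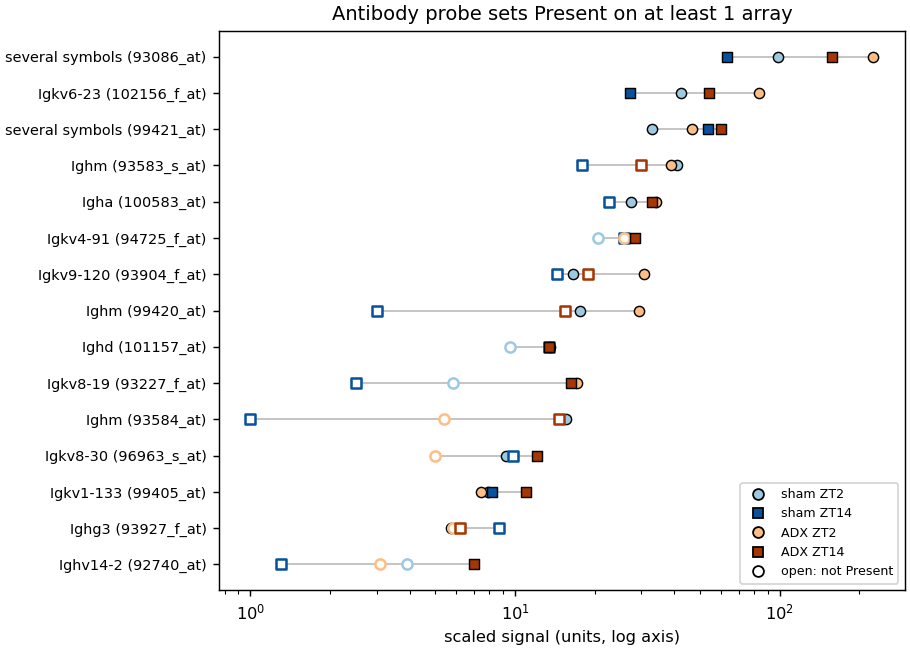
Scaled signal (units, log axis) on each array of the 15 heavy and kappa chain probe sets Present on at least 1 array, with symbols and colours for operation and time and open symbols where not Present; signals under 1 unit are drawn at 1. In the top row, annotated to 5 kappa symbols, both ADX symbols (225.9 and 157.0 units) lie above both sham symbols (98.6 and 63.0), as they do for Igkv6-23 and Igkv8-19.

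Taken as a group, 6 of 11 antibody members had a higher signal in ADX at both times and 0 had a lower one at both times, where 28.7% of all 5007 genes were higher at both times and 23.8% lower. The counts are a description, since probe sets of this family can share transcripts. In addition, 5 of the 11 (Igkv4-91, Ighd, Igkv8-19, Ighv14-2 and Jchain) were Present on ADX arrays only and 0 on sham arrays only, so that these 5 entered through the arrays where they were high, and 3 of them are among the 6. At ZT2, 7 of 11 were higher in ADX, against 51.3% of all genes, with a median log2 difference of 0.32. At ZT14, 10 of 11 were higher, against 53.3%, with a median of 0.42, and 9 of 11 with quantile normalization or signals as deposited. Of the members, Igkv6-23 and Igkv8-19 were at least 1.5-fold higher in ADX at both times and Present on both ADX arrays, which held for 0.779% of all genes; the reverse, Present on both sham arrays, held for 0 members and 0.32% of all genes. Raising the floor to 23.9 units left 4 of 11 above 0 at each time, because most antibody signals lie below that level.

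Genes of other cells were read on the same arrays. Haemoglobin Hba-a1, a measure of red cells and so of blood in the tissue, had 1552.4 units in sham ZT2, 873.8 in sham ZT14, 1260.9 in ADX ZT2 and 1788.8 in ADX ZT14. It was lower in ADX at ZT2 by a log2 difference of -0.30 and called higher at ZT14 (1.03). The other measured red cell genes gave -0.19 and 0.74 (Hbb-b2) and 0.03 and -0.06 (Alas2), so the red cell genes differed among themselves at ZT14. Igkv6-23 and the probe set with 5 kappa symbols were higher in ADX at both times. The summed signal of 4 measured B cell lineage and signalling genes was 43.1 and 37.5 units in sham and 35.1 and 41.2 in ADX. Of these, Btk, a B cell receptor kinase, was called higher in ADX at ZT14 and Present there alone (13.7 units), while Pax5, the B cell identity factor, gave -0.74 and -0.24 at the 2 times. Xbp1, a plasma cell factor that hepatocytes also make, differed between operations by -0.08 and -0.06. The plasma cell genes Prdm1, Irf4 and Tnfrsf17 were not Present on any array. The part of blood content or of B cell number in the difference of these kappa probe sets was not tested beyond these values.

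**Figure D3:**
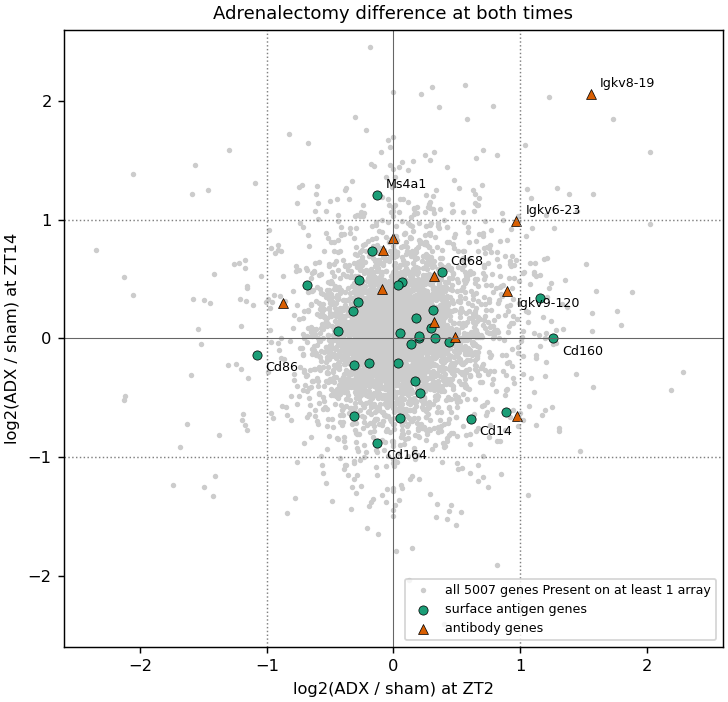
Log2 difference of ADX over sham at ZT2 (horizontal) and at ZT14 (vertical) for 5007 genes (grey), surface antigen members (green circles) and antibody members (orange triangles), with dotted lines at 2-fold; 4 grey genes lie outside the axes. Igkv8-19 (1.56, 2.06) lies in the upper right corner and Igkv6-23 (0.97, 0.99) near the crossing of the dotted lines, while most surface antigen genes lie within 2-fold at both times.

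Surface antigens Present on all arrays varied about as much as other such genes. Of these 20 members, 15 (75%) had a highest signal under 1.5-fold above the lowest, against 68.5% of all genes Present on all arrays, a share near the background. None of the 14 members with a mean signal of 50 units or more, Igkv6-23 among them, was called in any comparison, where 3.62% of all genes that bright were called between times in sham, 2.86% between times in ADX, 0.495% between operations at ZT2 and 0.914% at ZT14. The tetraspanins, membrane proteins that organise other receptors, gave 6 measured members of 7 on the array. None was called, where 11% of all genes were called at least once. Cd81 had 411.2, 412.6, 454.5 and 398.4 units (sham at ZT2 and ZT14, then ADX at ZT2 and ZT14, the order kept in what follows), a spread of 1.14-fold. Cd151 ranged 1.06-fold and its dimmer Present probe sets from 66.1 to 79.7 and from 31.3 to 56.4 units, so the smallest spread belongs to 1 probe set. Cd82 ranged 1.33-fold and Cd9 1.3-fold. Cd53, found on leukocytes generally, lay between 28.2 and 38.3 units, and Cd63 between 12.7 and 23.1.

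Cd1d1, which presents lipids to natural killer T cells, had 673.4 and 729.2 units in sham and 693.2 and 629.5 in ADX, 1.16-fold from lowest to highest. Cd302, a C-type lectin receptor, had 660.5 and 601.5 in sham and 759.7 and 602.6 in ADX. Cd47, the signal that restrains phagocytosis, was higher at ZT14 in both operations, 134.9 and 177.1 units in sham and 154.8 and 179.5 in ADX, by 1.31-fold and 1.16-fold. Its other probe set gave 1.1-fold and 1.09-fold. Among all bright genes Present on both arrays the robust SD of the log2 day-night difference was 0.3 in sham and 0.29 in ADX, so the Cd47 differences of 0.39 and 0.21 lie within what bright genes show in general.

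Cd164, a sialomucin of the cell surface and lysosome, stood low on 1 array. It had 977.9 units in sham ZT2, 941.3 in sham ZT14, 894.2 in ADX ZT2 and 510.1 in ADX ZT14. The ADX ZT14 signal was 1.85-fold below sham at the same time (log2 -0.88, where the robust SD over bright genes was 0.26) and 1.75-fold below ADX at ZT2. It was not called. Among the genes that protect cells from complement, Cd59b, an inhibitor of the membrane attack complex, had 86.1, 92.1 and 89.0 units on the other arrays and 57.9 in ADX ZT14, 1.59-fold below sham. Its paralogue Cd59a had 384.1 and 346.6 units in sham and 310.9 and 298.6 in ADX, 1.24-fold and 1.16-fold lower in ADX, so both ADX signals lay below both sham signals. Cd55, decay accelerating factor, had 19.2, 18.6, 24.1 and 18.6 units. Cd99, an adhesion protein of leukocytes and endothelium, had 99.6, 73.0, 102.4 and 99.5 units, low in sham ZT14 alone. Cd59a and Cd59b are close in sequence, and cross-hybridisation between them was not tested.

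Of 5 macrophage and monocyte antigens, 2 were called in at least 1 comparison, Cd14 and Cd86, both with dim signals. Over all genes 11% were called at least once, and 17.4% of those with a mean signal under 50 units. Cd68, a lysosomal protein of macrophages, had 41.2 and 36.8 units in sham and 53.5 and 54.2 in ADX, 1.3-fold higher in ADX at ZT2 and 1.47-fold at ZT14, with both ADX signals above both sham signals. Cd5l, an apoptosis inhibitor secreted by macrophages, had 178.9 and 158.3 in sham and 187.8 and 221.2 in ADX, 1.05-fold and 1.4-fold higher. Cd300c2, a receptor of myeloid cells, lay lower in ADX at both times, at 34.4 and 45.2 units in sham against 27.7 and 28.9, the last not Present. Cd14, the co-receptor for bacterial lipopolysaccharide, was Present on the sham ZT14 (28.0 units) and ADX ZT2 (37.7) arrays and not on the others (24.7 and 17.4), and in ADX it was called at least 2.17-fold lower at ZT14. Cd86, a co-stimulatory ligand, had 10.4 and 9.4 units in sham and 4.9 and 8.5 in ADX, Present in sham ZT2 alone, and was called at least 2.11-fold lower in ADX at ZT2. Of 15 measured Kupffer cell and macrophage genes outside the members, none was called in any comparison, beside the same 11% of all genes. Their summed signal was 1569.7 and 1374.8 units in sham and 1655.0 and 1469.3 in ADX.

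Ptprc, which encodes the pan-leukocyte phosphatase CD45, had 11 and 13.2 units in sham and 8.1 and 13.8 in ADX, Present on the sham arrays and Marginal on the ADX arrays. ADX was at least 1.35-fold lower at ZT2, and at ZT14 the log2 difference was 0.06. Cd52, a small anchored glycoprotein of lymphocytes, had 62.3, 53.6, 54.7 and 46.4 units. The array describes the Cd52 probe set as CD80, so which of these genes it reads is uncertain. Neither the chosen probe set of Ptprc nor that of Cd52 had both ADX signals above both sham signals, as Igkv6-23 did. The other probe sets of Ptprc did, but they were Absent on all arrays. For the brighter of them the log2 difference of ADX over sham was 0.49 at ZT2 and 1.67 at ZT14. The dimmer one lay under the floor on all arrays. The probe sets of Ptprc thus disagreed, and a difference in leukocytes generally was not tested. Cd2ap carries a fitting symbol but encodes an adaptor inside the cell that binds CD2, and lay between 10.8 and 17.6 units. The remaining dim members, Cd276 and Cd200 (immune checkpoint ligands), Cd320 (the receptor for transcobalamin) and Cd24a (a small anchored glycoprotein), were not called in any comparison by their chosen probe sets, with signals from 3.6 to 27.1 units. The other probe set of Cd276 was Present on ADX ZT14 alone, at 14.9 units against 4.0 in ADX ZT2 and 2.6 in sham ZT14, at least 3.77-fold and at least 3.82-fold higher.

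Between the times of day, 2.33% of members were called in sham, below the share of all genes, and 9.3% in ADX, above it. In sham, 1 of 43 members was called, where 5.19% of all genes were, and this was Ighm, at least 2.29-fold lower at ZT14 (log2 -1.19), where 2.2% of all genes were called lower. Both of its other Present probe sets were also lower at ZT14 in sham, at least 4.5-fold and at least 4.0-fold, but the mean over all 16 gave -0.32. Neither these nor the chosen probe set was Present at ZT14 in either operation. They were thus picked through ZT2 arrays, sham ZT2 among them, and their shared direction in sham supports nothing. In ADX the chosen probe set of Ighm was 1.29-fold lower at least. In ADX, 4 of 43 were called, against 4.63% of all genes, 2 higher and 2 lower at ZT14 against 2.54% and 2.1%. Cd99l2, an adhesion protein related to Cd99, was 2.0-fold higher at ZT14 (21.8 and 43.7 units) and the only called member Present on all arrays. Its log2 difference was 0.97 with signals as deposited and 0.99 with quantile normalization, just under 2-fold. Igkv8-30 was at least 2.41-fold higher, Cd14 at least 2.17-fold lower and Cd160, a receptor of natural killer and T cells, at least 2.4-fold lower. The 2 higher and 2 lower calls became 1 and 3 with signals as deposited or quantile normalization.

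The kappa members did not share a day-night direction. Of 6, 3 (Igkv6-23, Igkv8-19 and Igkv9-120) were lower at ZT14 in both operations and 3 (Igkv8-30, Igkv1-133 and Igkv4-91) higher. Several of these directions rest on little. The log2 difference was 0.09 for Igkv8-30 and 0.06 for Igkv1-133 in sham, and -0.07 for Igkv8-19 in ADX. Igkv8-19 was not Present in sham, Igkv9-120 was not Present at ZT14, and Igkv4-91 was Present on ADX ZT14 alone. Igkv6-23 was 1.57-fold lower at ZT14 in sham and 1.55-fold lower in ADX, and the probe set with 5 kappa symbols 1.56-fold and 1.44-fold lower. No array is common to these comparisons. None of these reached 2-fold, and over all genes Present on both arrays the robust SD of this difference was 0.34 in sham and 0.32 in ADX, against log2 differences of -0.65 and -0.63 for Igkv6-23. Cd93, a glycoprotein of endothelial and myeloid cells, had 11 and 15.7 units in sham and 12.5 and 17.7 in ADX, 1.43-fold and 1.42-fold higher at ZT14. Over all members the median log2 day-night difference was 0.00 in sham and -0.04 in ADX, beside 0.00 and 0.01 over all genes. In both operations 11 members were higher at ZT14 and 13 lower, against 31.1% and 30.7% of all genes.

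**Figure D4:**
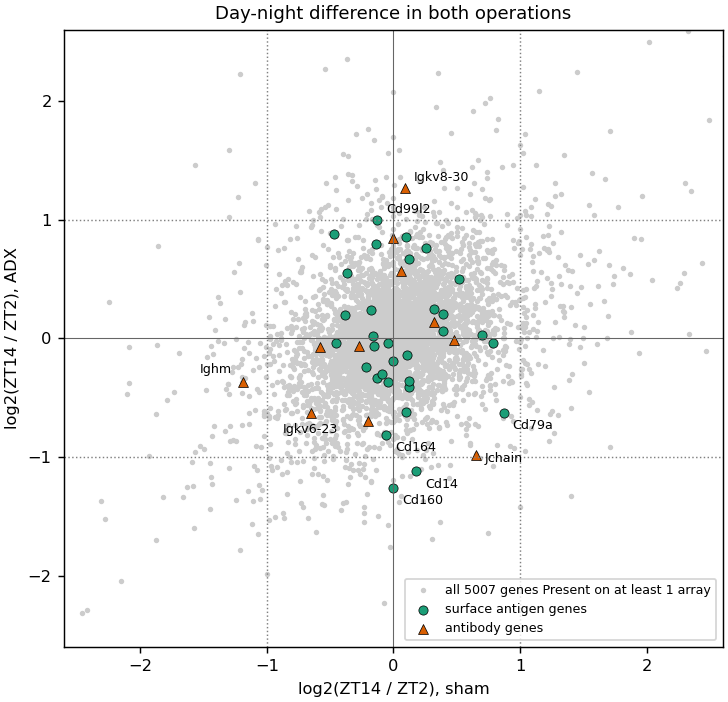
Log2 difference of ZT14 over ZT2 in sham (horizontal) and ADX (vertical) for 5007 genes (grey), surface antigen members (green circles) and antibody members (orange triangles), with dotted lines at 2-fold; 20 grey genes lie outside the axes. Igkv6-23 (-0.65, -0.63) lies low in both, Ighm (-1.19) is the 1 member past 2-fold in sham, and no member is past 2-fold in both.

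Between operations, 4 of 43 members were called at ZT2, where 2.16% of all genes were, and 2 at ZT14, against 3.14%. At ZT2, 3 were higher in ADX and 1 lower, against 1.42% and 0.739% of all genes, and at ZT14 both were higher, against 1.86%. At ZT2, Igkv8-19, Cd160 (at least 2.4-fold) and Cd27, a lymphocyte receptor of the tumour necrosis factor receptor family (at least 2.24-fold), were higher in ADX. The other probe set of Cd27, not Present on any array, had 7.2 units in sham ZT2 and 6.8 in ADX ZT2. With quantile normalization the chosen one gave a log2 difference of 0.95, under 2-fold. Cd86 was lower. With quantile normalization the split was 2 higher and 2 lower. With signals as deposited it was 3 and 2 at ZT2 and 2 and 1 at ZT14. At ZT14, Igkv8-19 and Ms4a1 were higher. Ms4a1, which encodes the B cell antigen CD20, had 22.2, 16.0, 20.2 and 37.1 units, with the ADX ZT14 signal at least 2.32-fold above sham, and its other probe set was not Present on any array.

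The called signals were dim. All 9 members called in any comparison had a mean signal under 50 units, the class called dim here. They made up 31% of the 29 members that dim, where 17.4% of all dim genes were called at least once, and 20.9% of all members, against 11% of all genes. By comparison, 1, 4, 4 and 2 of the 29 were called (day-night in sham and in ADX, then ADX over sham at ZT2 and at ZT14), against 6.93%, 6.59%, 3.99% and 5.59% of all dim genes. Cd160 had 3.6, 1.4, 9.4 and 1.4 units and Cd27 3.9, 6.7, 8.8 and 8.5, each Present on ADX ZT2 alone, and Cd86 was Present on sham ZT2 alone (10.4 units). Such a gene entered the group through the array where it was high. Doubling the floor ended 5 of the 11 calls, and a floor of 23.9 units ended all 11, while the shares called over all genes fell as well.

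In limma, time and operation were fitted together as additive terms over 5872 probe sets, so that the arrays of both times, or of both operations, stood in for replicates. It tested 35 members and called none for either effect at an adjusted p under 0.05, while over all probe sets 0 passed for operation and 2 (0.0341%) for time. At an unadjusted p under 0.05, 4 of 35 members passed for operation, against 5.6% of all probe sets. They were Igkv8-19 (log2 1.81, SE 0.20), Igkv6-23 (0.98, SE 0.15), Igkv9-120 (0.65, SE 0.20) and Cd68 (0.47, SE 0.16), each with a Benjamini-Hochberg adjusted p of 0.83 and higher in ADX at both times. For time, 3 of 35 passed unadjusted, against 13.2% of all probe sets. These were Igkv6-23 (-0.64, SE 0.15, limma adjusted p = 0.296), Cd93 (0.51, SE 0.15, adjusted p = 0.342) and Ighm (-0.78, SE 0.26, adjusted p = 0.356), each in the same direction in both pairs. Only 1 degree of freedom was left for error, and any real interaction of time with operation falls into it. Igkv8-19 entered the fit through the 2 ADX arrays where it was high, so its p supports nothing, and one sham signal of it was set to the floor. Ighm entered through the 2 ZT2 arrays where it was high, so its p for time supports nothing either.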

How the data were processed

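Per the file headers, each deposited file gives 1 Affymetrix Signal per probe set, a linear intensity. The deposited detection p-value beside it served only by way of the calls it sets. The sources used here name no scaling target. The deposited series table held the same intensities (largest difference 0). Arrays were scaled to a common 2% trimmed mean (factors 0.925 and 0.977 for sham at ZT2 and ZT14, 1.043 and 1.067 for ADX), floored at 3.91 units and taken to log2. Present calls covered 44.4% to 47.0% of 12422 probe sets, 66 controls left out. All arrays ran on 1 day and station, each on its own module, so module and group cannot be told apart. The 3' to 5' ratio was 1.69 to 1.89 for actin and 0.91 to 1.03 for Gapdh. The number of arrays limits the precision.

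Symbols came from the platform annotation, and probe sets with several symbols named no gene. RefSeq listed all 43 members. Members and lists were chosen with earlier results of these data known. Named were called members, antibody members, the 10 with the highest signals, defining markers, those with the lowest fit p-values, and other lists' called or defining genes; others were chosen after their values were seen. The fit used limma 3.58.1 in R 4.3.3 on probe sets Present on at least 2 arrays. Its p-values rest on the scatter of these 4 arrays alone, which may be technical. Other steps used Python 3.11.15, NumPy 2.4.6 and pandas 2.3.3, and steps were tested on simulated data. Alternatives covered scaling, floor, detection, probe set choice, fold and the fit's terms.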

Additional observations from a re-analysis of the deposited data

Results flagged for a closer look

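Cd79a, Jchain and Cd14 went opposite ways by at least 1.5-fold in pairs of arrays under the same contrast, each with dim signals, and these differences were not tested because each group has 1 array. Cd79a, a signalling chain of the B cell receptor, had 10.2, 18.7, 18.9 and 12.2 units for sham at ZT2 and ZT14 and then ADX at ZT2 and ZT14, and was Present on ADX ZT2 alone. Its log2 day-night difference was 0.87 in sham and -0.63 in ADX, and its difference between ADX and sham was 0.89 at ZT2 and -0.62 at ZT14. Jchain gave 0.65 in sham and -0.98 in ADX between the times, and 0.98 at ZT2 and -0.65 at ZT14 between operations. Cd14 was higher in ADX at ZT2 (0.61) and lower at ZT14 (-0.68).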

How the results depend on the processing

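Counts of called members depended on how dim signals were handled. In the order sham day-night, ADX day-night, ADX over sham at ZT2 and at ZT14, the counts were 1, 4, 4 and 2. With the floor doubled they became 1, 2, 1 and 2, where 4.11%, 3.46%, 1.14% and 1.8% of all genes were called. With a floor of 23.9 units they were 0, 0, 0 and 0, against 2.34%, 1.92%, 0.3% and 0.659%. In just the 22 members with Present calls throughout they were 0, 1, 0 and 0, against 3.37%, 2.62%, 0.617% and 1.03% of all such genes. The shares over all genes thus fell as well. Without a detection filter they were 6, 8, 13 and 9 of 90 genes, where 8.99%, 9.3%, 6.28% and 8.77% of all genes passed, and at 1.5-fold they were 3, 14, 11 and 8, where 15.8%, 15.1%, 8.99% and 11.9% passed. Averaging all probe sets of a gene gave 0, 4, 3 and 3, where 4.75%, 4.17%, 1.68% and 2.72% of all genes were called. Both scalings, a floor of 1 unit and a probe set chosen among Present ones (added after seeing the data, 44 members) kept every count within 1.5 times. The median difference of the members at ZT2, 0.14, became -0.03 with signals as deposited, where the median of all genes shifted to -0.16, and 0.00 with a floor of 23.9 units. No called difference changed sign under any alternative, and Igkv6-23 kept its direction in all 4 comparisons, between 0.80 and 0.97 at ZT2 and 0.87 and 1.0 at ZT14 for ADX over sham. Of 5 antibody members read by probe sets without a family or shared suffix (added after seeing the data), 3 were higher in ADX at ZT2 and 4 at ZT14. The limma fit called 0 members for either effect under all 8 alternatives. No replicate could be left out, and none could be paired by number, since each group has 1 array; the additive fit itself compares operations within a time and times within an operation, and without the other term it also called 0 members. Signals near or below 23.9 units, the 95th percentile of Absent signals, limit most antibody and lymphocyte genes.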

Other observations

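Probe sets annotated to several symbols of the group name no gene, but some were clearly detected. One annotated to 4 heavy chain symbols was Present on all arrays, with 32.8 and 53.4 units in sham and 46.6 and 59.8 in ADX, higher at ZT14 in both operations, where Igkv6-23 was lower. One shared by both decay accelerating factor genes had 21.8, 21.9 and 21.5 units on the other arrays and 12.6 on ADX ZT14, a log2 difference from sham of -0.80, while Cd55 itself gave 0.00. One shared by both CD1d genes lay between 681.1 and 806.8 units on all arrays.

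Stellate cell genes, of which 6 were measured, had a median log2 difference of ADX over sham of 0.40 at ZT2 and 0.18 at ZT14. Over all genes the medians were 0.01 and 0.03. Col1a1 and Acta2 were Present on ADX ZT2 alone, so they were measured only through an array where they were above sham. The 4 Present on all arrays lay between -0.00 and 0.47 at ZT2 and between -0.11 and 0.51 at ZT14. No stellate cell gene was called, where 2.16% and 3.14% of all genes were. Endothelial genes, of which 9 were measured, were lower at ZT14 in 8 of 9 cases in sham and 7 of 9 in ADX, with medians of -0.35 and -0.14. Of all 5007 genes, 2519 were lower in sham and 2445 in ADX. No endothelial gene was called, where 5.19% and 4.63% of all genes were. Of the endothelial genes, Eng, a co-receptor for transforming growth factor beta, had 296.3 and 197.5 units in sham and 316.9 and 191.8 in ADX.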
